A study of Mus musculus with 4 samples.

Results

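The cytoplasmic ribosomal protein genes were examined for Foxr2 binding at their promoters. They were chosen by gene symbol, as the protein-coding genes of GENCODE M21 named Rpl or Rps with a number and at most a short suffix, together with Rplp0, Rplp1, Rplp2 and Rpsa. This rule gave 83 of 21853 protein-coding genes, 51 of the large subunit and 32 of the small subunit. Among them, 3 are tissue-restricted paralogs (Rpl3l, Rpl10l and Rpl39l), 3 are other paralogs (Rpl22l1, Rpl7l1 and Rps27l), and the remaining 77 are called the core genes below. Rps4l has no protein-coding annotation in M21 and did not enter.

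Binding was measured by CUT&RUN, in which a nuclease tethered to an antibody releases the DNA around its target, with an antibody against the V5 tag. The 2 Foxr2 p53LOF replicates came from a neurosphere line (genotype FOXR2 P53LoF, strain C57BL/6J). This line was derived from a mouse brain tumor induced by in utero electroporation of V5-tagged FOXR2 under the ubiquitous CAG promoter and of a CRISPR guide against Trp53, so the profiled protein is overexpressed and tagged, and 1 line stands for the model. The 2 V5 control replicates came from a line of a separate electroporation model (genotype H3.3G34R, the same strain) that lacks the tag, so the control differs from the Foxr2 p53LOF line in its tumor drivers as well as in the tag. All cells were cross-linked with 0.1% formaldehyde for 1 minute. The labels do not say that replicates were separate cultures, and their spread may be technical.

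The cytoplasmic ribosome builds every cellular protein except the few made inside mitochondria, and most ribosomal proteins are needed in equal amounts in all cells. Their promoters are short, active in nearly every cell type, and start transcription at a cytidine followed by a run of pyrimidines, the terminal oligopyrimidine (TOP) motif through which mTOR controls translation of these mRNAs. A few members have paralogs used in place of the general protein in 1 tissue, such as testis or striated muscle. Foxr2 is a forkhead protein, and ETS factors bind sequences with the core GGAA, which are common at promoters of housekeeping genes.

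Promoter sequences of members across the range of folds are given first, from 100 bases before to 20 bases after the RefSeq start (GRCm38.p6), 5′ to 3′ on the strand of the gene. They were taken from the 21 of 63 stretches that hold at most 30 bases of an exon of any protein-coding gene in GENCODE M21 or RefSeq, which leaves out the members with the highest folds. Capitals mark matches, on either strand, to the letters CCGGAAG (ETS), GGGCGG (SP), CACGTG (E-box, the same on both strands), TATAAA or TCTCGCGAG, the last of which can overlap its own reverse, as it does at Rpl26. AAGATGGC (YY1) and GCGCATGCG (NRF1) were searched as well and are not in these stretches. At Rps21 the RefSeq start is a cytidine followed by 4 pyrimidines. It is not at the other general genes printed here and below, so no TOP start can be read from their stretches. The genes are ordered from Rps24, with the highest lower fold of those shown first, to Rpl36a, the lowest.
Rps24 (chr14:24490578-24490697, plus strand): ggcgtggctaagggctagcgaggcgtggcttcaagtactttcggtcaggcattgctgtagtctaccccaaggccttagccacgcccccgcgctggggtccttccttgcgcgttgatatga
Rpl27 (chr11:101442145-101442264, plus strand): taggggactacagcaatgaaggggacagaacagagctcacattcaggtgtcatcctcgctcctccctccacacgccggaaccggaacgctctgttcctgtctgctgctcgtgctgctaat
Rpl23 (chr11:97782420-97782539, minus strand): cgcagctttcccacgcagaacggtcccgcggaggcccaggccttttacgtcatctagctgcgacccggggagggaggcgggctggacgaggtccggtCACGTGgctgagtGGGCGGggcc
Rpl31 (chr1:39367751-39367870, plus strand): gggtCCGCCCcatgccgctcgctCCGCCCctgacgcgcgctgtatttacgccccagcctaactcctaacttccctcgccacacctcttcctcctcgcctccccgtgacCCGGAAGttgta
Rpl26 (chr11:68901466-68901585, plus strand): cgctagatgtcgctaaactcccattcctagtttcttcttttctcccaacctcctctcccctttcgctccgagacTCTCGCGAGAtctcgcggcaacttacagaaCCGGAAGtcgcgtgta
Rps4x (chrX:102189372-102189491, minus strand): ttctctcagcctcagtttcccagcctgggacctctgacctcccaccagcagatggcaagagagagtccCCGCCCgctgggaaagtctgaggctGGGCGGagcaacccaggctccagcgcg
Rps21 (chr2:180257279-180257398, plus strand): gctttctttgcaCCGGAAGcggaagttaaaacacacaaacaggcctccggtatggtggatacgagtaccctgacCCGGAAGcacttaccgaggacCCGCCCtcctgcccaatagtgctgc
Rpl36a (chrX:134585554-134585673, plus strand): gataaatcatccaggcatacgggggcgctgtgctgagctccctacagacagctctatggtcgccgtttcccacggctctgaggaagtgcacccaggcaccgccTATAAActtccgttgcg

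Rpl10l and Rpl3l, which are tissue-restricted paralogs, had no promoter peak, and their sequences are set beside that of Rpl10, the general gene that Rpl10l stands in for.
Rpl10 (chrX:74270716-74270835, plus strand): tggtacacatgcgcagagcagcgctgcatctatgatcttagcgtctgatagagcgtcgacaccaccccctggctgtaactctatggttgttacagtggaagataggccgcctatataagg
Rpl10l (chr12:66284382-66284501, minus strand): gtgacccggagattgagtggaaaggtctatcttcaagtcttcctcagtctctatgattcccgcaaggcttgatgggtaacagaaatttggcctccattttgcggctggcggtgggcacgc
Rpl3l (chr17:24727726-24727845, plus strand): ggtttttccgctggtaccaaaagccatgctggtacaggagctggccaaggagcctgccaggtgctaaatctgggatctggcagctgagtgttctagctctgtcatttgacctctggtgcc

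The promoter table held 63 of the 83 genes (75.9%, under the 80% needed to describe a whole list), so no motif or base composition share over the members was taken from it. Among the members without an entry were Rpl3, Rpl7, Rpl8, Rpl17, Rpl21, Rpl23a, Rpl29, Rpl30, Rpl32, Rpl36, Rplp1, Rps14, Rps20, Rps27a and Rps29.

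Nearly every ribosomal protein gene had a Foxr2 peak at its promoter, and the exceptions were the 3 tissue-restricted paralogs. A gene was counted as having a promoter peak where any base of a peak lay within 1 kb of the start of one of its protein-coding transcripts. In replicate 1, 80 of 83 members (96.4%) had such a peak, against 53.4% of all protein-coding genes. In replicate 2 the count was again 80 of 83, against 54.4% of all genes. The same 80 members had a peak in both replicates, against 51.5% of all genes (11254 of 21853). No test was run on these shares, because members are not replicates of a condition and 2 libraries against 2 cannot reach a two-sided p under 0.333 in an exact permutation test.

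After the filters of the study's methods (no overlap of 10 bp or more with a control peak, −log10 q above 6, fold enrichment above 6 and length under 10000 bp, in both replicates), 77 of 83 members (92.8%) kept a reproducible promoter site, against 39.3% of all genes. Of the 80 members with a peak, 3 had none that passed, among them Rpl36a with folds of 5.74 and 9.53 in replicates 1 and 2 and Rps20 with 7.51 and 5.91. Both genes fell under the minimum fold in 1 replicate only.

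No member had a promoter peak in either V5 control replicate, where 0.124% (27 genes) and 0.0869% (19 genes) of all protein-coding genes did. The control lists held 308 and 124 peaks against 31909 and 38580 in the Foxr2 p53LOF replicates. They list only stretches that passed peak calling, so a weaker control signal at the members cannot be read from them.

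**Figure D1:**
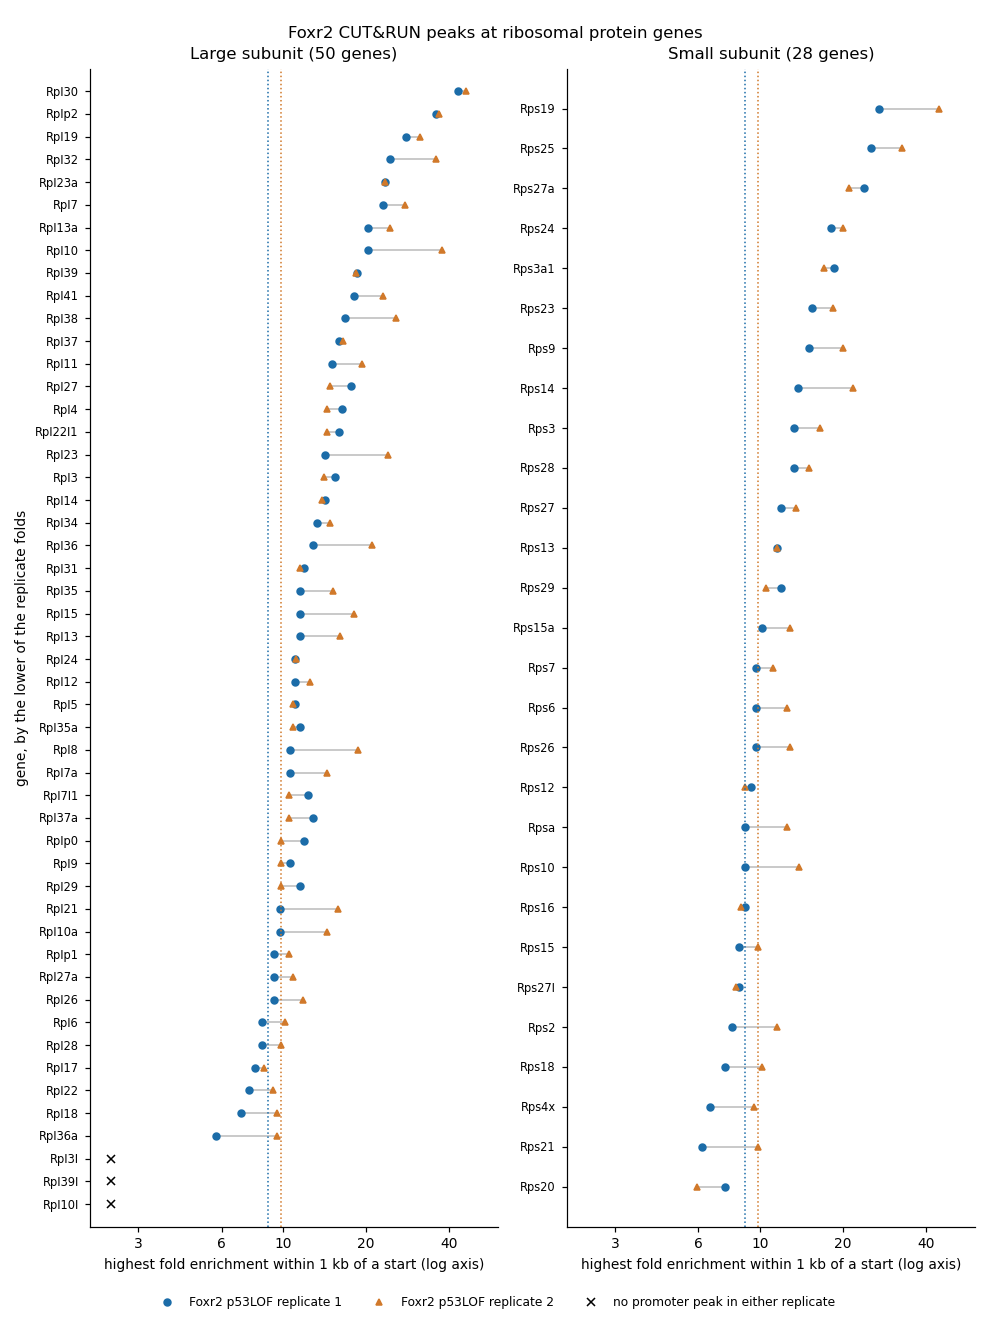
Highest fold enrichment (log axis) of a peak within 1 kb of a start of 78 ribosomal protein genes, in Foxr2 p53LOF replicate 1 (circles) and replicate 2 (triangles), for 50 genes of the large and 28 of the small subunit; dotted lines are the medians over all protein-coding genes with a promoter peak (8.84 and 9.86). Rpl30 stands highest, most members lie to the right of the medians, and Rpl3l, Rpl39l and Rpl10l (crosses) had no promoter peak.

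Peak height is given as the fold enrichment at the summit, a ratio to the background of the same library, so values are compared within a replicate and not between them. The median fold of the 80 bound members was 11.7 in replicate 1 and 14.0 in replicate 2. Over all protein-coding genes with a promoter peak the medians were 8.84 and 9.86. Of the 80 members, 62 in replicate 1 and 63 in replicate 2 lay above those medians. The range ran from 5.74 to 42.9 in replicate 1 and from 5.91 to 46.0 in replicate 2. Among the highest 10% of all genes (folds above 17.7 and 21.7, ties left out) were 18 and 15 members, and among the lowest 10% (below 4.86 and 4.93) were 0 in either replicate. Ranked by the lower of its replicate folds, 13 members (16.2%) were above 20, 37 (46.2%) between 10 and 20, 27 (33.8%) between 6 and 10 and 3 (3.75%) at or below 6. Over the 11254 genes bound in both replicates, the same classes held 6.8%, 32.4%, 38.1% and 22.7%. The lower fold only sorts genes, because it sets folds of 2 libraries side by side. It was mostly that of replicate 1, as replicate 2 was higher at 58 members (72.5%, against 71.8% of all genes).

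Rpl30, a large subunit protein, had the highest folds of the set, 42.9 in replicate 1 and 46.0 in replicate 2. These rest on 96 and 139 fragments at the summit, which give 95% counting intervals of 34.8 to 52.2 and 38.7 to 54.2 (exact Poisson, counting error only). Rplp2 of the stalk followed with 35.8 and 36.8. Both genes stood above at least 98.3% of all genes with a promoter peak in both replicates, the lowest share being that of Rplp2 in replicate 2.

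Other members with high folds were Rpl19 (27.8 and 31.2), Rps19 (27.0 and 44.4), Rps25 (25.2 and 32.5), Rpl32 (24.3 and 35.8), Rpl23a (23.4 and 23.3), Rpl7 (23.0 and 27.6) and Rps27a (23.9 and 21.03). Rpl13a and Rpl10 each had 20.3 in replicate 1, with 24.3 and 37.5 in replicate 2, but in replicate 1 the summit of the peak given to Rpl13a lay nearer to the start of another gene.

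**Figure D2:**
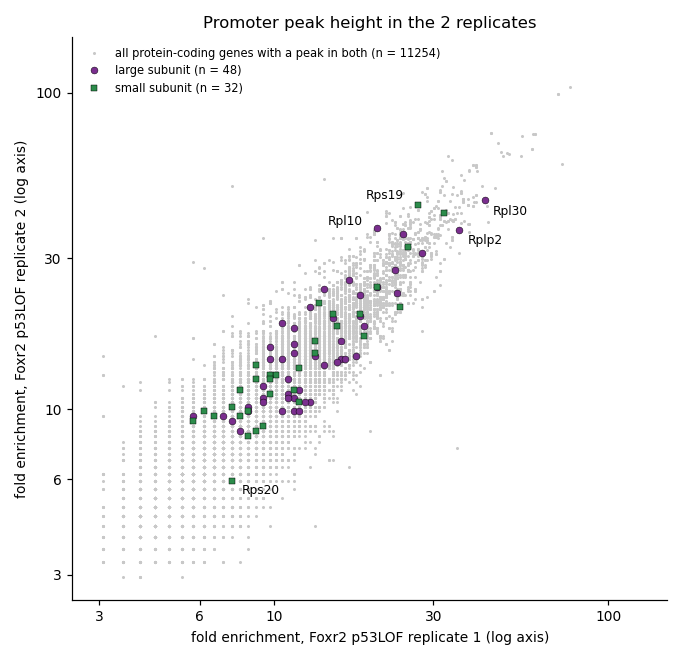
Fold enrichment of the highest promoter peak in replicate 1 against replicate 2 (both log axes, each fold relative to its own library), for 48 large subunit members (circles), 32 small subunit members (squares) and all 11254 genes with a peak in both replicates (gray); 7 genes lie beyond the axis end of 150. The members lie in the upper part of the cloud, with Rpl30 and Rplp2 farthest to the right and Rps20 among the lowest.

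The order of the members was much alike in both replicates, with a Spearman correlation of 0.865 over 80 genes, against 0.876 over all genes bound in both. The points share a library and its background, so this is a description. The largest ratios between the replicate ranks were those of Rpl10 (rank 11 and 4 of 80), Rplp2 (2 and 5), Rps19 (5 and 2), Rpl8 (50 and 23) and Rpl23 (28 and 13).

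Among the stalk proteins, which recruit the translational GTPases, only Rplp2 was among the most enriched. Rplp0, on which the other stalk proteins assemble, had folds of 11.9 and 9.86, and Rplp1 had 9.28 and 10.5. In replicate 1 all 3 stalk genes lay above the median of all genes, and in replicate 2 Rplp0 lay at it.

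Rpl5 and Rpl11 form a particle with the small ribosomal RNA of the large subunit and, when ribosome assembly is disturbed, bind Mdm2. Rpl11 had folds of 15.02 and 19.4, and Rpl5 had 11.0 and 10.8. Rpl11 was the higher one in both replicates.

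The genes whose proteins line or ring the exit tunnel of the nascent chain all had a reproducible site (9 of 9), with a median fold of 11.9 and 14.5. Their folds ran from 7.51 to 27.8 in replicate 1 and from 8.54 to 31.2 in replicate 2. Rpl19 and Rpl23a led, Rpl39, a short protein inside the tunnel, had 18.6 and 18.4, and Rpl4, which forms its constriction, had 16.3 and 14.5. Rpl31 had 11.9 and 11.5, Rpl35 11.5 and 15.1, and Rpl26 9.28 and 11.8. The lowest were Rpl17 (7.95 and 8.54) and Rpl22 (7.51 and 9.20).

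The proteins of the decoding site and the mRNA channel were likewise all bound at a reproducible site (9 of 9), with medians of 13.3 and 16.4. Rps23, near the decoding site, had folds of 15.5 and 18.4, and Rps9 had 15.02 and 20.04. Rps14 had 13.7 and 21.7 and Rps3, which takes part in unwinding incoming mRNA, had 13.3 and 16.4. Rps28 had 13.3 and 15.1, Rps26 9.72 and 12.8, Rps15 8.39 and 9.86, and Rps2 7.95 and 11.5. In replicate 1, Rps15 and Rps2 were the members of this list below the median of all genes, and in replicate 2 Rps15 stood at that median.

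Diamond-Blackfan anemia is a failure of red cell production caused by loss of 1 copy of a ribosomal protein gene. All 15 genes listed for it had a peak in both replicates, and 14 had a reproducible site, with medians of 11.5 and 13.5. Rps19, the gene most often affected, stood highest, and Rps24 had 18.1 and 20.04. Rpl27 had 17.7 and 14.8, Rpl15 11.5 and 18.1, and Rpl35a 11.5 and 10.8. Rps7, with 9.72 and 11.2, and Rps10, with 8.84 and 13.8, were among the lower ones. Rps27, Rps29, Rps26, Rps28, Rpl5, Rpl11 and Rpl26 are further genes of the list, with folds between 9.28 and 15.02 in replicate 1 and between 10.5 and 19.4 in replicate 2.

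Rps27a is made as a fusion with ubiquitin and had the folds given above. Fau, a fusion with a ubiquitin-like protein, carries no Rpl or Rps symbol and is described with the genes outside the rule.

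The core genes of the large subunit had median folds of 11.9 and 14.6 (46 genes), and those of the small subunit 10.2 and 12.8 (31 genes). At the lower end of the set, below the median of all genes in both replicates, lay among others Rpl17, Rpl18 (7.07 and 9.53), Rpl22, Rpl36a, Rps4x (6.63 and 9.53), Rps20 and Rps27l.

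The members split by tissue use. Rpl10l, used in testis in place of Rpl10, had its nearest peak 125621 bp from the start in replicate 1 and 125612 bp in replicate 2. Rpl39l, the testis paralog of Rpl39, had it 143218 bp and 195990 bp away. Both therefore lay far outside the window in both replicates. Rpl3l, which replaces Rpl3 in heart and skeletal muscle, had its nearest peak 1832 bp away in replicate 1, with a fold of 10.2 and a summit 199 bp from the start of Ndufb10. In replicate 2 a peak of 564 bp with a fold of 3.61 lay 1053 bp from a start of Rpl3l, just outside the window.

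The general genes of the same pairs were all bound. Rpl3 had folds of 15.5 and 14.1, Rpl10 of 20.3 and 37.5, and Rpl39 of 18.6 and 18.4. Within the printed bases, Rpl10, Rpl10l and Rpl3l hold none of the letters searched. The Rpl10 summits lay 346 and 331 bp before the RefSeq start, outside those bases, and the windows around them hold GGGCGG in both replicates. No RNA was measured in these files, and whether Rpl3l, Rpl10l and Rpl39l were expressed in this line was not tested.

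The other paralogs, which are expressed more widely, all had a reproducible site (3 of 3). Rpl22l1 had folds of 15.9 and 14.5, above the 7.51 and 9.20 of Rpl22. In replicate 1 the counting intervals were 11.2 to 21.9 for Rpl22l1 and 4.48 to 11.9 for Rpl22, and in replicate 2 they were 10.6 to 19.4 and 6.17 to 13.2, so they overlapped in both. Rpl7l1 had 12.4 and 10.5 against 23.0 and 27.6 for Rpl7, with intervals of 8.3 to 17.8 against 17.2 to 30.1 in replicate 1, which just overlapped, and of 7.25 to 14.8 against 22.05 to 34.1 in replicate 2, which did not. Rps27l, a known target of p53, had 8.39 and 8.21 against 11.9 and 13.5 for Rps27, with overlapping intervals in both replicates. Rpl22l1 thus stood above its partner, and Rpl7l1 and Rps27l below theirs, in both replicates.

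The 4 X-linked members differed widely among themselves. Rpl10 (20.3 and 37.5) and Rpl39 (18.6 and 18.4) were high, and Rps4x (6.63 and 9.53) and Rpl36a (5.74 and 9.53) were low. The median over all genes of chromosome X with a promoter peak was 5.74 in replicate 1 and 5.91 in replicate 2, which is 0.65 and 0.6 times the median of all chromosomes. Divided by that level, Rpl10 had 3.54 and 6.33, Rps4x and Rpl36a were at or above 1, and Rpl30, divided by the level of chromosome 15, had 4.04 and 3.84. The low level of chromosome X was shared by its other genes, and its part in the folds of Rps4x and Rpl36a was not tested.

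**Figure D3:**
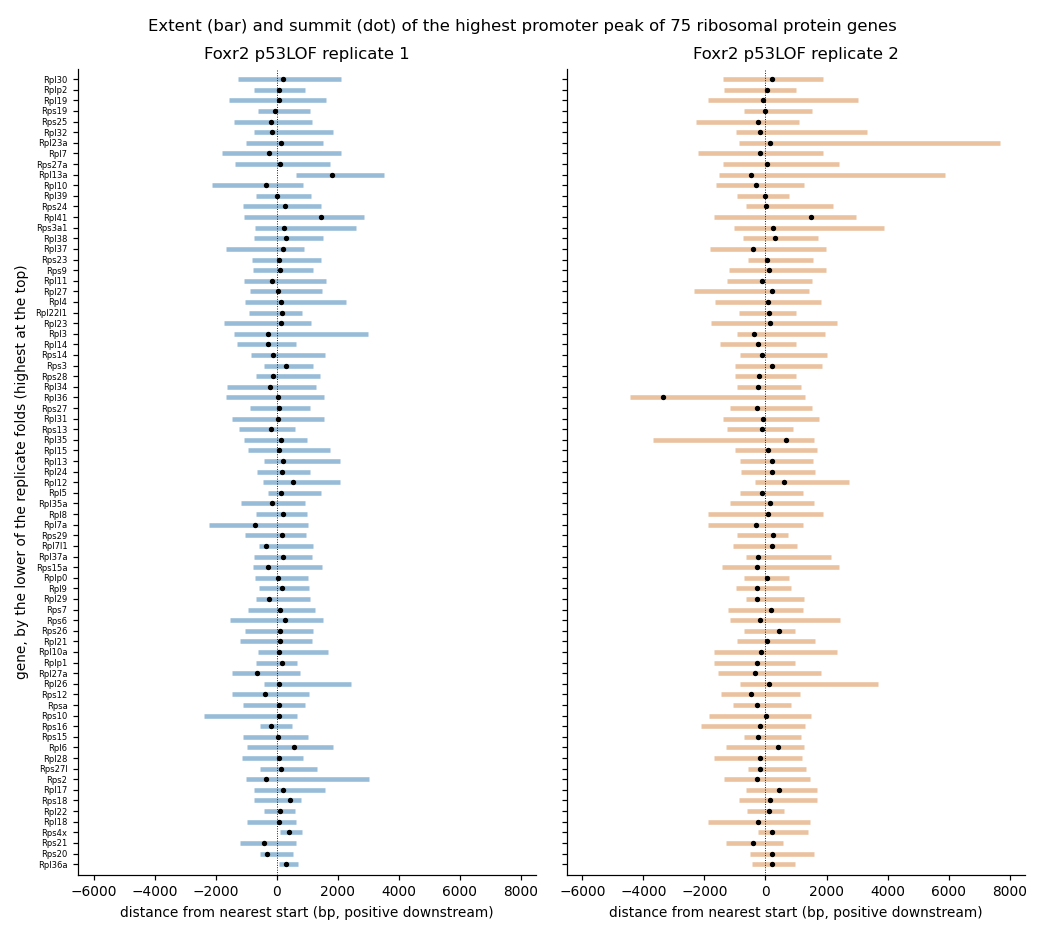
Extent (bar) and summit (dot) of the highest promoter peak of 75 bound members, in bp from the nearest protein-coding start of the gene (positive downstream), in replicate 1 (left) and replicate 2 (right), ordered by the lower of the replicate folds with Rpl30 at the top. The bars cover the start at most members, and the dots off the start by more than 1000 bp belong to Rpl41, Rpl13a and Rpl36.

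Peaks at members had a longer median length than those at all promoters. The median length was 2250 bp in replicate 1 (range 614 to 4404) and 2782 bp in replicate 2 (1235 to 8542), against 1796 and 2121 bp over all genes with a promoter peak. The shortest was that of Rpl36a in replicate 1, with 614 bp, and that of Rpl22 in replicate 2, with 1235 bp. The longest was that of Rpl23a in replicate 2, with 8542 bp against 2539 bp in replicate 1. Over the 80 bound members the length and the fold of a peak had a Spearman correlation of 0.408 in replicate 1 and 0.469 in replicate 2, a description of values that come from the same peak.

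The summits mostly flanked the start, as they did over all genes. Their median distance from the nearest start was 189 bp in replicate 1 and 212 bp in replicate 2 (215 and 213 bp over all genes). Of 80 members, 52 (65%) and 54 (67.5%) had the summit 100 to 400 bp from the start, against 58.3% and 58.2% of all genes. Within 50 bp of the start lay 3 and 5 summits (3.75% and 6.25%, against 7.62% and 7.74%). In the 100 bp just before the start, replicate 1 had 1 summit and replicate 2 had 4. In the 100 bp just after it lay 17 summits in replicate 1 (21.25%, against 13.7% of all genes). Replicate 2 had 10 there (12.5%, against 14.0%).

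In replicate 1, 54 of the 80 summits were downstream and 26 upstream, while in replicate 2 the split was 39 and 41, and the median offset (positive downstream) was 90.5 bp and −27.5 bp. The direction in replicate 2 is not settled. Its median offset was 143 bp with only the gene start, and 45 bp without the 13 members whose summit lies nearer to another gene. Over all genes 55.7% and 53% of summits were downstream. The summits of the replicates lay on the same side of the start at 59 of 80 members (73.8%, against 74.7% of all genes) and were a median of 69 bp apart (103 bp over all genes). Within 100 bp of each other lay 49 pairs of summits (61.3%, against 49.5%).

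Rpl10 illustrates a stable upstream summit, at 342 and 327 bp before the start. Rpl30 had its summit 195 and 199 bp downstream, and Rpl38 (folds of 16.8 and 25.6) 317 and 303 bp downstream. Rpl37 was among those that switched, from 216 bp downstream to 408 bp upstream, and so did Rps6, from 271 bp downstream to 187 bp upstream. Where a gene has several annotated starts, the offset depends on the one taken as nearest: the summits of Rps24 were 273 and 28 bp after a GENCODE start, but 362 and 117 bp after the RefSeq start of the promoter printed above.

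**Figure D4:**
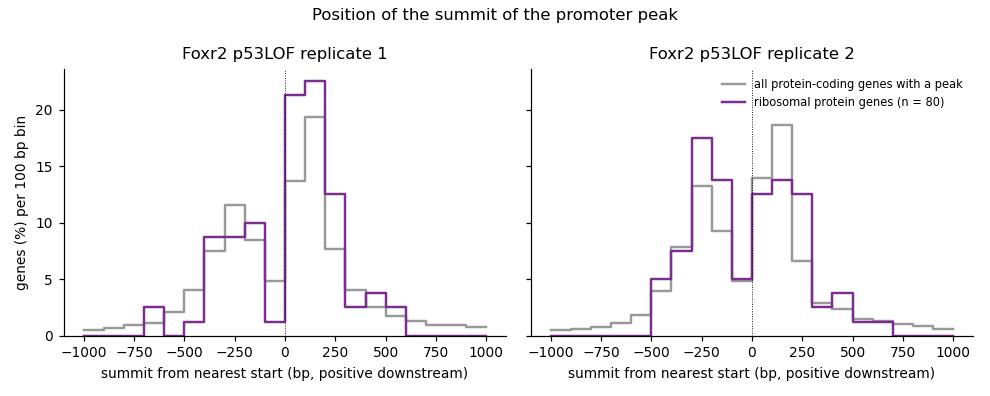
Share of genes (%) in each 100 bp bin of the distance from the nearest start to the summit of the promoter peak, for the 80 bound members and for all protein-coding genes with a peak, in replicate 1 (left) and replicate 2 (right). Both sets have a maximum on either side of the start and a dip just before it, where 1 and 4 member summits lie.

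Some members share their promoter region with another gene, and the peak can then not be assigned to 1 of them. The peak also reached within 1 kb of a start of another protein-coding gene at 18 members in replicate 1 (22.5%) and 21 in replicate 2 (26.2%), against 22.2% and 22.6% of all bound genes. The folds of the members with a shared peak had a median of 11.7 in replicate 1, the same as the 11.7 of those with a peak of their own, and of 15.1 against 12.8 in replicate 2.

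The summit was nearer to the start of another gene than to that of the member in at least 1 replicate at 13 members, and at 67 it was nearest to the member's own start in both. For Rps25 the nearer start was that of Trappc4, 80 and 126 bp away, and for Rps27a that of Clhc1, 37 and 31 bp away. For Rpl41, the smallest ribosomal protein, the summits lay 9 and 32 bp from the start of Zc3h10 and 1472 and 1495 bp from that of Rpl41, so its folds of 18.1 and 23.0 belong to the Zc3h10 promoter by position. Rpl12 (11.0 and 12.5) shared its peak with Lrsam1, and Rpl7a (10.6 and 14.5) with Med22.

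Rps28 shared its peak with Ndufa7, and Rps10 shared its start region with the readthrough gene RPS10-NUDT3. In replicate 2 alone, the summit lay nearer to Sphk2 for Rpl18, to Lias for Rpl9 and to Rab13 for Rps27. For Rpl36 in replicate 2 a peak of 5711 bp had its summit 3350 bp upstream, near 2410015M20Rik, whereas in replicate 1 the peak of 3215 bp had its summit 40 bp downstream of the Rpl36 start, with a fold of 12.8. For Rpl13a, a peak of its own with a fold of 14.1 and a summit 494 bp upstream was present in replicate 1. In replicate 2 it was part of 1 peak of 7408 bp with its summit 462 bp upstream of the Rpl13a start. Without these 13 members the median folds were 11.5 and 12.8.

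The letters around the summits were read from the genome in windows of 300 bp, at the summit of each replicate, for the 80 bound members and for all 11254 genes bound in both replicates. CCGGAAG was present at 15 members (18.8%) in replicate 1 and at 10 (12.5%) in replicate 2, against 10.4% and 10.2% of all genes. It was present at 8 members in both windows, a count for which no share over all genes was taken. Among these 8 were Rpl30, Rplp2, Rpl32, Rpl11, Rps14, Rps10 and Rpl6. The median fold of members with these letters was 13.7 in replicate 1 and 20.5 in replicate 2, against 11.5 and 13.1 of members without them. Over all genes these medians were 10.2 against 8.84 and 11.8 against 10.2. Around the RefSeq starts of the promoter table, the difference at members was reversed in replicate 1 and small in replicate 2. From 250 bases before to 50 after the start, the 24 bound members with CCGGAAG had medians of 10.6 and 13.3. Those without it had 11.7 and 13.1. That table has no entry for Rpl30, Rpl32 and Rps14. The presence of these letters is a description of the window and not a measured binding of an ETS factor.

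The other letters were counted in the same windows. GGGCGG was present at 38 (47.5%) and 40 (50%) members, against 48.9% and 48.4%, TATAAA at 4 (5%) and 5 (6.25%), against 5.25% and 5.62%, and AAGATGGC at 5 (6.25%) and 4 (5%), against 3.93% and 3.54%. CACGTG was present at 9 (11.2%) and 7 (8.75%), against 8.23% and 8.71%. GCGCATGCG and TCTCGCGAG were each present at 2 members (2.5%) in replicate 1, against 1.11% and 0.489% of all genes, and at 0 in replicate 2, against 1.29% and 0.453%. The median GC content of the windows was 62% and 60% at members, against 61% and 60.3% over all genes.

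Many ribosomal protein genes carry small nucleolar RNAs, which guide modification of ribosomal RNA, in their introns. The 30 members with an annotated snoRNA inside the gene were all bound in both replicates, with median folds of 12.4 and 15.1. Of the 53 members without one, 50 were bound, with medians of 11.7 and 13.1. Of the 226 other protein-coding genes that host a snoRNA, 75.2% were bound in both replicates, with medians of 11.0 and 12.2. Rpl30, Rplp2 and Rpl32 host a snoRNA, whereas Rpl19 and Rps19 host none.

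**Figure D5:**
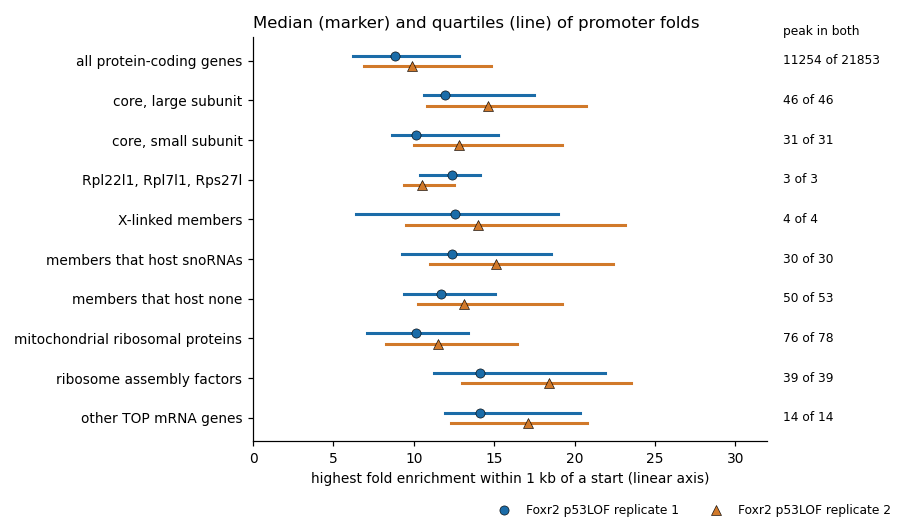
Median (marker) and quartiles (line) of the highest promoter fold (linear axis) in replicate 1 (circles) and replicate 2 (triangles) for all protein-coding genes, subsets of the members and related gene lists, with the number of genes bound in both replicates at the right. The medians of the members lie above those of all genes and below those of ribosome assembly factors and other TOP mRNA genes.

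Related genes outside the rule were bound about as often. Among further cytoplasmic ribosomal genes, Fau (11.9 and 9.53), Rack1 (39.8 and 45.3), a scaffold on the small subunit, and Rpl36al (11.0 and 13.1) had a reproducible site. Rps27rt, a retrogene copy of Rps27, had no promoter peak, and Rpl37rt has no protein-coding annotation. All 39 ribosome assembly factors were bound in both replicates, with medians of 14.1 and 18.4, among them Ncl (29.6 and 40.1) and Gtpbp4 (38.0 and 38.4). The 14 other genes with TOP mRNAs were all bound as well, with medians of 14.1 and 17.1 and the highest folds at Hnrnpa1 (70.7 and 99.2). Of the 78 nuclear genes for mitochondrial ribosomal proteins, 76 (97.4%) were bound in both replicates and 64 (82.1%) had a reproducible site, with medians of 10.2 and 11.5. The share of bound promoters was therefore as high in these last 3 lists as in the members, by counts alone and without a test.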

How the data were processed

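V5 CUT&RUN peak lists of 2 Foxr2 p53LOF and 2 V5 control replicates were used. Per the methods and the submitters' processing notes, the authors trimmed reads (Trimmomatic 0.39), aligned them to mm10 (BWA 0.7.17), removed duplicates (Picard 2.26.6) and called peaks in each library (MACS2 2.2.7.1); how reads with several matches were treated is not given in the sources used here. Fold enrichment as deposited is a ratio that the authors' peak caller formed at the summit from fragments and background, with 1 added to each. The folds correspond to 1 background level per library, not a local one, of 1.26 and 2.04 fragments in Foxr2 p53LOF replicates 1 and 2. The authors' caller also gave a −log10 p, a −log10 q and a score (10 times the −log10 q) for each peak, all deposited.

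The fold of 1 fragment was found from folds up to 30 (all whole within 0.05 fragments), and all 80 member folds of either replicate, 3 and 8 of them above 30, were whole within the same limit. A fold above 6 takes 13 fragments (replicate 1) or 18 (replicate 2) in the Foxr2 p53LOF line, and 16 or 9 in the control line. Each gene took its highest fold within 1 kb of a protein-coding start (GENCODE M21, GRCm38.p6, 54361 starts of 21853 genes). The open chromatin step of the methods was not repeated. The steps were tested on simulated data. Python 3.11.15, pandas 2.3.3 and NumPy 2.4.6 were used. Members and lists were chosen with earlier results of these data known. Named are all paralogs, the 10 members with the highest lower fold, those with no peak, the 5 with the largest ratio of ranks, and 2 to 4 genes of each list; further genes were named after their values were seen. Values of some genes are not reported here, though they count in the totals. Alternatives covered the window, the start, the filters, the choice of peak, the chromosome level and each replicate. The summit windows and the values without members whose summit lies nearer to another gene were added after the data were seen.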

Additional observations from a re-analysis of the deposited data

How the results depend on the processing

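Of 50 alternatives to 10 reported values, 47 kept counts within 1.5 times and medians within 1 SD of the replicates, and 3 did not. Some could not have moved: 80 of 83 cannot rise 1.5 times, and 0 control peaks stay 0 when a control replicate is left out. The SD is that of 2 replicate values and is wide for the offset. A move from 90.5 to 167 bp in replicate 1, with only the gene start, stayed within it. With a minimum fold of 10, members with a reproducible site fell to 50. With a window of 2 kb, 1 tissue-restricted paralog (Rpl3l) had a promoter peak. With only the gene start as the start, the median summit offset in replicate 2 moved from −27.5 to 143 bp, and without the 13 members whose summit lies nearer to another gene it was 45 bp, so its direction is not settled. Leaving out Foxr2 p53LOF replicates in turn gave 80 members with a peak each time and 78 to 79 with a site. No paired analysis was possible because no value came from a test. Fragments at the summit limit precision: folds near 6 rest on 12 to 18 fragments.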

Other observations

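Processed pseudogenes of ribosomal proteins were examined in the same way. Of 289 annotated ribosomal protein pseudogenes, 5 (1.73%) had a peak within 1 kb of their start in both Foxr2 p53LOF replicates and 0 in either control. No share over all annotated pseudogenes was taken. How reads with several matches were treated is not given, so neither a peak nor its absence at such copies can be read as binding. At 2 of the 5 pseudogenes with a peak, Rpl35a-ps7 (folds of 19.9 and 26.6) and Rpl29-ps2 (9.72 and 13.5), the peak also reached the start of a protein-coding gene. At the other 3 it did not: Rpl21-ps7 had 7.51 and 8.54, Rpl30-ps6 7.07 and 5.59, and Rps15a-ps3 7.51 and 10.5.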
